A study of Homo sapiens with 18 samples.

Results

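The genes described here are 10 enzymes of serine and one-carbon metabolism, PHGDH, PSAT1, PSPH, SHMT1, SHMT2, MTHFD1, MTHFD2, MTHFD1L, ALDH1L2 and CBS, of 27968 genes with a value in each of 18 RNA sequencing libraries. They were chosen by name as the members of the pathway, after a strong fall of PHGDH in A549 had been seen in these data. The values of PHGDH in every comparison that uses A549 libraries are therefore given as a description, with no test. Each of the 10 genes had a row in every library, and the count of CBS was 0 in 3 MDA-MB-231 libraries (siRNA1 replicate 1 and control replicates 1 and 3).

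A549 is a cell line of lung cancer and MDA-MB-231 one of breast cancer. Both were grown in DMEM with 10% FBS. A549 cells were transfected with siRNA1, siRNA2 or siRNA3 against BLM, a RecQ helicase, or with a control siRNA. MDA-MB-231 cells were transfected with siRNA1 or a control siRNA. Each of the 6 groups had 3 libraries. The labels name both flat culture at about 80% confluence and 3D culture on day 4 and do not say which libraries came from which. An siRNA lowers BLM in the whole culture and leaves the gene intact, and the same siRNA1 in both lines is read from its shared name only. The labels do not tell whether a group's 3 libraries are from separate cultures. The p-values then cover the spread of these libraries alone, and that spread may be technical.

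PHGDH, PSAT1 and PSPH turn a glycolytic intermediate into serine in 3 successive steps. The mitochondrial SHMT2 and the cytosolic SHMT1 split serine into glycine and a one-carbon unit carried by folate. In mitochondria MTHFD2 oxidises that unit and MTHFD1L releases it as formate. In the cytosol MTHFD1 takes formate up again for purine and thymidylate synthesis. ALDH1L2 oxidises the mitochondrial unit to CO2, and CBS joins serine to homocysteine on the way to cysteine. Proliferating cancer cells are known to use the pathway heavily, and the transcription factor ATF4 is known to raise several of its genes when amino acids are short.

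Promoter windows from RefSeq (GRCh38.p14), reaching from 250 bases before to 50 bases after a transcript start, were matched by symbol for 7 of the 10 genes. The windows of 3 genes are shown because they stand at both ends of the response in A549: PHGDH and MTHFD2 had the largest falls with siRNA1, and MTHFD1L was not called with any siRNA there. They lie at chr1:119711684-119711983 for PHGDH, chr2:74198365-74198664 for MTHFD2 and chr6:150866236-150866535 for the first MTHFD1L start listed, all on the plus strand. Capitals mark each match to a searched motif on either strand: TGATGNAA, the element bound by ATF4 with a C/EBP partner, CACGTG, the E-box bound by MYC, TTTNGCGC, an E2F site, and CCAAT, the box bound by NF-Y.
PHGDH: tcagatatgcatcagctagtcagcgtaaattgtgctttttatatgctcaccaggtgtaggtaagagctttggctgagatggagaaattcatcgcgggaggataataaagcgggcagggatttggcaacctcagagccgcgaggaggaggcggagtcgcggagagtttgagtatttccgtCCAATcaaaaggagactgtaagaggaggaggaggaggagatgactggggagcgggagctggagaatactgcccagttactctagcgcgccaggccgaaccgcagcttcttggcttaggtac
MTHFD2: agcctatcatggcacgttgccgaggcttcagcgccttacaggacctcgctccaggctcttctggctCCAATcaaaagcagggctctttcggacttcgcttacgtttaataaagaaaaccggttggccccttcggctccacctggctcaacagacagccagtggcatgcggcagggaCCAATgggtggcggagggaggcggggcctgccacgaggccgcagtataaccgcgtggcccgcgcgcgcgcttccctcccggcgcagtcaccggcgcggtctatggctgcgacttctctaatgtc
MTHFD1L: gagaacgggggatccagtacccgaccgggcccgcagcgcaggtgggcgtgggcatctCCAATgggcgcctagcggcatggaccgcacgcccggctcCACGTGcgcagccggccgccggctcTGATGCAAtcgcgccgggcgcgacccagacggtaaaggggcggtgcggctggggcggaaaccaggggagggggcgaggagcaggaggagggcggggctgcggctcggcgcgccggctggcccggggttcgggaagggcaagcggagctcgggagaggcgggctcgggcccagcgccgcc
TGATGNAA occurred in 3.62% of all 35116 windows, CACGTG in 7.26%, TTTNGCGC in 1.79% and CCAAT in 34.6%. Among the windows of the 7 matched genes, TGATGNAA was present only for MTHFD1L, CACGTG for MTHFD1L and MTHFD1, and TTTNGCGC for none. CCAAT was present in at least 1 window of each of these 7 genes. The MTHFD1L window at chr6:151006758-151007057 and the CBS window at chr21:43076328-43076627 held no CCAAT. Counted by gene, with a match in any window, the shares over 27305 genes were 4.46% for TGATGNAA, 8.77% for CACGTG, 2.17% for TTTNGCGC and 39.7% for CCAAT. None of these motifs overlapped another in the 3 windows shown. These are matches of letters in a window of 300 bases.

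Library totals ran from 30143047 to 40328208 expected counts. BLM was lower in every library given a BLM siRNA. It stood at 1.16 to 1.19 CPM (counts scaled to library size) with siRNA1, 10.4 to 11.02 CPM with siRNA2 and 6.27 to 7.13 CPM with siRNA3 in A549, against 76.1 to 87.5 CPM in A549 control. In MDA-MB-231 it stood at 4.78 to 4.97 CPM with siRNA1, against 32.0 to 34.3 CPM in control. The remaining BLM was therefore lower in A549 with siRNA1 than in any other group. TPM is scaled to transcript length and library. The summed level of 7 cycling cell markers (MKI67, TOP2A, BUB1, CCNB1, CDK1, MCM2, PCNA) was 560.6 to 620.7 TPM with siRNA1, 1323 to 1363 TPM with siRNA2 and 1053 to 1178 TPM with siRNA3 in A549, against 2022 to 2228 TPM in A549 control. In MDA-MB-231 it was 708.5 to 738.7 TPM with siRNA1, against 1726 to 1760 TPM in control. All 7 fell with siRNA1 and siRNA3 in A549 and with siRNA1 in MDA-MB-231, and 6 of them with siRNA2. The part of this shift in the results below was not tested.

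Markers of other kinds moved as well. The summed level of 4 epithelial markers was 12690 to 14490 TPM with siRNA1, 6357 to 6592 TPM with siRNA2 and 5024 to 5364 TPM with siRNA3 in A549, against 5054 to 5299 TPM in A549 control, and 917.3 to 1012 TPM with siRNA1, against 1063 to 1332 TPM in control, in MDA-MB-231. All 4 rose with siRNA1 and 3 with siRNA2 in A549, 2 fell in MDA-MB-231, and with siRNA3 CDH1 (E-cadherin) fell (log2 fold change -3.57, and -3.42 without its replicate 3, where EPCAM also became called lower). The mesenchymal markers VIM and FN1 summed to 1723 to 1849 TPM over the A549 siRNA groups, against 884.7 to 976.8 TPM in A549 control, and to 2137 to 2214 TPM with siRNA1, against 3011 to 3063 TPM in control, in MDA-MB-231. FN1 rose with siRNA1 and siRNA2 in A549, VIM with siRNA2 and siRNA3, and in MDA-MB-231 FN1 rose and VIM fell. The 6 fibroblast markers summed to 10.96 to 12.64 TPM with siRNA1, 14.72 to 16.04 TPM with siRNA2 and 5.42 to 9.27 TPM with siRNA3, against 1.69 to 1.79 TPM in A549 control, and to 8.95 to 9.7 TPM with siRNA1, against 6.93 to 7.64 TPM in control, in MDA-MB-231. Of the 4 fibroblast markers tested in A549, 3 rose with siRNA1 and 3 with siRNA2. With siRNA3 COL1A1 rose (2.53) and COL3A1 fell (-0.64, not called without replicate 3, at -0.43). In MDA-MB-231, of 4 tested, 1 rose and 2 fell, although the sum was higher. Of the 4 alveolar type 2 markers, SFTPC, SFTPB and SFTPA1 were under 1 TPM on average in every group, while NAPSA rose with each A549 siRNA. The list summed to 0.76 to 1.89 TPM over the A549 siRNA groups, against 0.45 to 0.61 TPM in A549 control. In MDA-MB-231 it summed to 0.5 to 0.68 TPM with siRNA1, against 0.39 to 0.74 TPM in control. Of the 4 luminal breast markers, GATA3 and FOXA1 were above 1 TPM on average in every group and ESR1 in A549 with siRNA3, and the list summed to 19.47 to 46.19 TPM over the A549 siRNA groups, against 15.91 to 17.62 TPM in A549 control, and to 3.23 to 3.53 TPM with siRNA1, against 4.73 to 5.81 TPM in control, in MDA-MB-231, where ESR1 and PGR were under 1 TPM on average. Of the 4 leukocyte markers, PTPRC and CD3E were under 1 TPM on average in every group and CD14 carried the sum, which was 3.74 to 6.15 TPM with siRNA1, 6.73 to 8.57 TPM with siRNA2 and 1.62 to 1.91 TPM with siRNA3, against 4.3 to 5.89 TPM in A549 control, and 11.94 to 13.38 TPM with siRNA1, against 8.58 to 9.37 TPM in control, in MDA-MB-231. The 3 endothelial markers summed to at most 0.44 TPM in any A549 library, and to 2.14 to 2.53 TPM with siRNA1, against 3.48 to 4.68 TPM in control, in MDA-MB-231. The part of none of these marker shifts in the results was tested. In cultures sequenced in bulk, fewer cells of a kind and less RNA per cell cannot be told apart.

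A single library stood apart. In A549 siRNA3 replicate 3 the deviations of all genes from their group mean had an SD of 0.263 on the log2 scale, against 0.0831 to 0.174 in the other 17 libraries. They ran with transcript length (Spearman's rho across genes -0.731, a description, as genes are not independent). Other libraries ran with length too, with rho from -0.495 (A549 control replicate 2) to 0.63 (A549 siRNA3 replicate 1). The mean of the siRNA3 group includes replicate 3. Values for siRNA3 without that library follow those with it.

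In A549, most of the pathway was lower with each BLM siRNA, and PHGDH and MTHFD2 were lowered most with siRNA1. Of the 9 genes tested against control, 7 fell with siRNA1, 7 with siRNA2 and 6 with siRNA3, and 0 rose. A gene is said to be called where edgeR's quasi-likelihood test gave it an adjusted p (Benjamini-Hochberg) under 0.05. With siRNA1, 71.7% of 15898 tested genes were called, with siRNA2 60.9% and with siRNA3 61.3%, and 32.8%, 28.4% and 30.4% were called lower in the same order. The shares called higher were 39%, 32.5% and 30.9%. The median log2 fold change of the 9 genes was -1.16 with siRNA1, -0.44 with siRNA2 and -0.60 with siRNA3, beside medians of 0.09, 0.04 and 0.00 over all tested genes. The 3 comparisons share their control libraries. Without A549 siRNA3 replicate 3, 6 of 9 genes were again called with siRNA3, the same 6, and the median was -0.67.

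**Figure D1:**
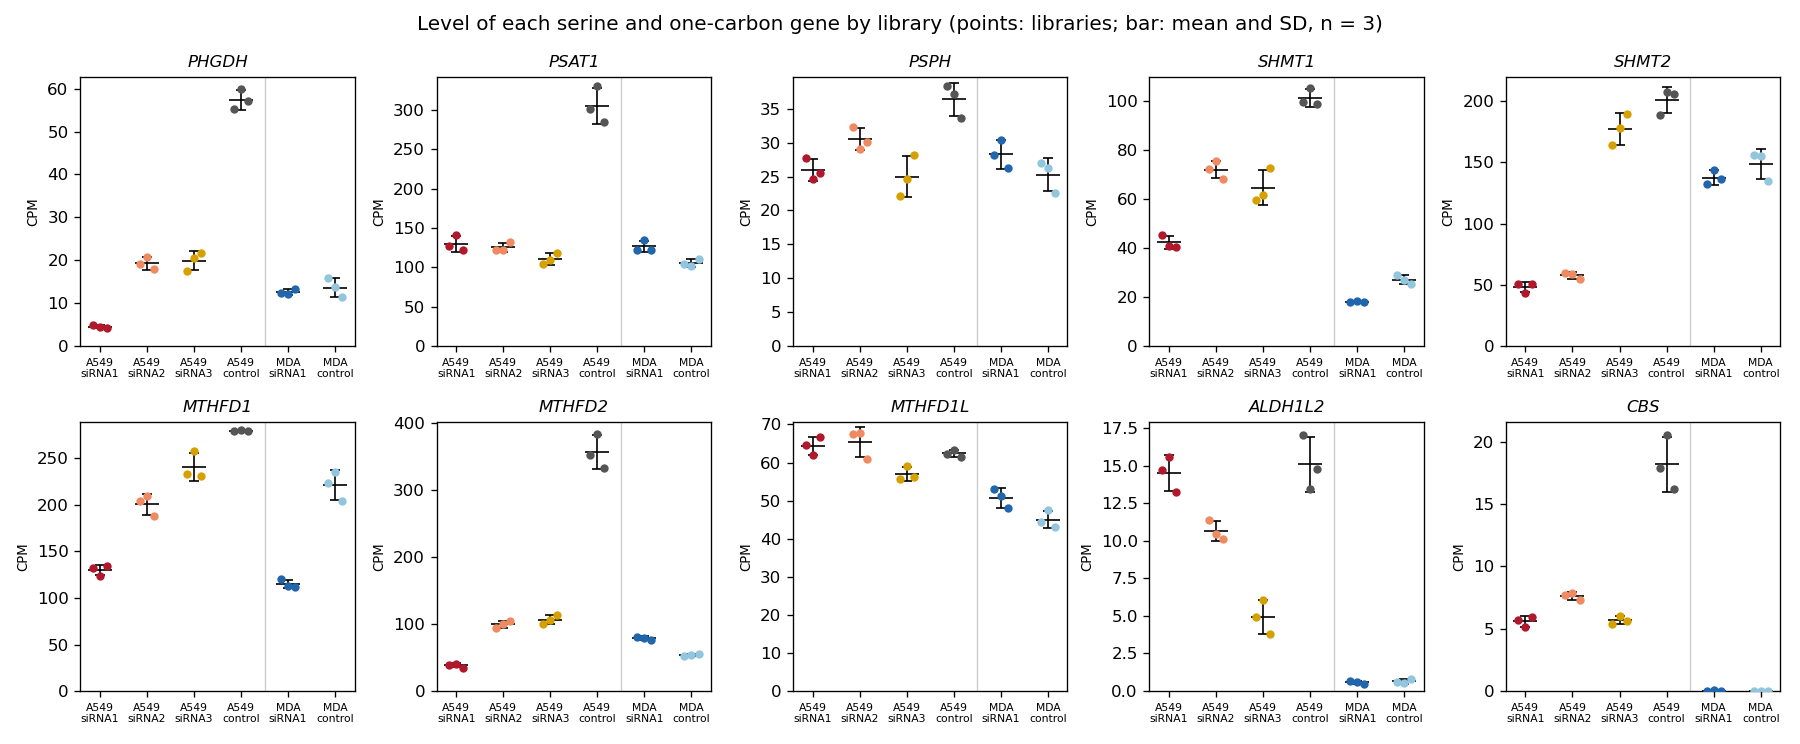
CPM of each of the 10 genes in every library. Points are libraries, the bar and whiskers are the mean and SD of 3 libraries, groups of A549 stand left of the grey line and those of MDA-MB-231 right of it, and each axis starts at 0. PHGDH and MTHFD2 are lowest in A549 with siRNA1, SHMT2 is low with siRNA1 and siRNA2 but not with siRNA3, and CBS and ALDH1L2 are near 0 in MDA-MB-231.

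PHGDH, which catalyses the first step of serine synthesis, had 4.99, 4.38 and 4.30 CPM in A549 with siRNA1, 19.1, 20.8 and 17.9 CPM with siRNA2, and 17.5, 20.6 and 21.7 CPM with siRNA3, against 55.2, 59.9 and 57.1 CPM in A549 control. No siRNA library reached the control libraries, and the siRNA1 libraries lay below all those with siRNA2 and siRNA3, which overlapped each other. The log2 fold change was -3.57 ± 0.10 (SE, 3 libraries a group) with siRNA1, -1.52 ± 0.09 with siRNA2 and -1.48 ± 0.09 with siRNA3 (-1.52 without replicate 3). As a percent of control, that is 8.41%, 35.0% and 35.9%. Between siRNAs, again as a description, the log2 difference was -2.06 ± 0.10 for siRNA1 against siRNA2, -2.09 ± 0.10 for siRNA1 against siRNA3 (-2.05 without replicate 3) and -0.04 ± 0.09 for siRNA2 against siRNA3 (0.01 without it).

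PSAT1, which makes phosphoserine, fell with each siRNA. It had 127, 141 and 122 CPM with siRNA1, 122, 122 and 132 CPM with siRNA2 and 104, 109 and 119 CPM with siRNA3, against 301, 330 and 284 CPM in A549 control. The 3 siRNA groups all lay far below the control libraries. The log2 fold changes were -1.16 ± 0.08, -1.23 ± 0.08 and -1.41 ± 0.08 (edgeR adjusted p 2.13e-08, 3.34e-08 and 8.41e-09), and the last was -1.45 without siRNA3 replicate 3 (adjusted p 6.63e-09). PSPH, which removes the phosphate to give serine, changed least of the serine synthesis genes. It had 27.7, 24.6 and 25.5 CPM with siRNA1, 32.3, 29.1 and 30.1 CPM with siRNA2 and 22.1, 24.6 and 28.2 CPM with siRNA3, against 38.3, 37.2 and 33.6 CPM in A549 control. It fell with siRNA1 (-0.41 ± 0.09, adjusted p 0.00119) and siRNA3 (-0.49 ± 0.09, adjusted p 0.000371, and -0.57 without replicate 3, adjusted p 9.03e-05), and its value with siRNA2 was not called (-0.20 ± 0.09, adjusted p 0.0772). On log2(TPM + 1) the PSPH call with siRNA1 was lost (-0.15, limma adjusted p 0.0895).

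**Figure D2:**
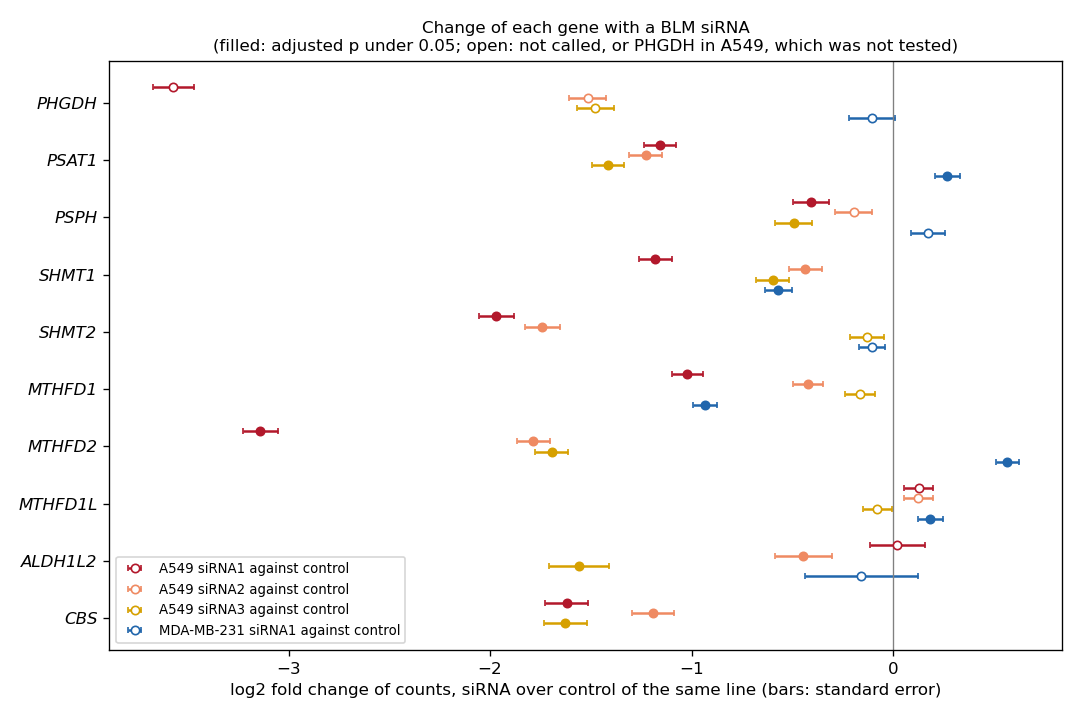
Log2 fold change of each gene with each BLM siRNA over the control siRNA of the same line, from counts, with the standard error as whiskers. Filled points are called, open points are not called or, for PHGDH in A549, not tested. MTHFD2 is at -3.14 in A549 with siRNA1 and at 0.57 in MDA-MB-231 with the same siRNA, and CBS has no point in MDA-MB-231, where it did not pass the count filter.

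Of the enzymes that release one-carbon units from serine, the mitochondrial SHMT2 separated the siRNAs most clearly. It had 50.7, 43.5 and 51.0 CPM with siRNA1, 59.4, 58.9 and 54.7 CPM with siRNA2 and 164, 178 and 190 CPM with siRNA3, against 188, 208 and 206 CPM in A549 control. The siRNA3 libraries overlapped the controls, and those with siRNA1 and siRNA2 did not. SHMT2 fell with siRNA1 (-1.97 ± 0.09, adjusted p 2.88e-10) and siRNA2 (-1.74 ± 0.09, adjusted p 3.65e-09), and was not called with siRNA3 (-0.13 ± 0.08, adjusted p 0.202, and -0.16 without replicate 3, adjusted p 0.111). The difference itself was large, -1.84 ± 0.09 for siRNA1 against siRNA3 (adjusted p 7.52e-10) and -1.61 ± 0.09 for siRNA2 against siRNA3 (adjusted p 4.83e-09). These were -1.81 and -1.58 without siRNA3 replicate 3 (adjusted p 7.48e-10 and 4.76e-09). The cytosolic SHMT1 fell with each siRNA. It had 45.4, 40.9 and 40.5 CPM with siRNA1, 72.2, 75.3 and 68.3 CPM with siRNA2 and 59.6, 61.8 and 72.6 CPM with siRNA3, against 99.8, 105 and 98.6 CPM in A549 control. Its log2 fold changes were -1.18 ± 0.08, -0.43 ± 0.08 and -0.60 ± 0.08 (adjusted p 2.41e-08, 0.000406 and 2.69e-05), and -0.67 with siRNA3 without replicate 3 (adjusted p 4.09e-06).

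The mitochondrial MTHFD2 was the most abundant of the 10 genes in A549 control, at 287 to 310 TPM, and the gene of the 9 tested with the largest change with siRNA1. It had 39.4, 40.4 and 34.7 CPM with siRNA1, 93.8, 99.7 and 104 CPM with siRNA2 and 99.4, 107 and 113 CPM with siRNA3, against 352, 383 and 332 CPM in A549 control. Every siRNA library was far below the controls, and those with siRNA1 were lowest. The log2 fold changes were -3.14 ± 0.09, -1.78 ± 0.08 and -1.69 ± 0.08 (adjusted p 2.12e-12, 1.83e-09 and 2.34e-09), and -1.72 with siRNA3 without replicate 3 (adjusted p 2.05e-09). MTHFD2 was lower with siRNA1 than with siRNA2 by -1.36 ± 0.08 (adjusted p 1.38e-08) and than with siRNA3 by -1.45 ± 0.08 (adjusted p 4.55e-09, and -1.42 without siRNA3 replicate 3, adjusted p 4e-09).

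MTHFD1L, which releases formate in mitochondria, did not follow it. It had 64.5, 62.1 and 66.7 CPM with siRNA1, 67.4, 67.8 and 60.9 CPM with siRNA2 and 55.7, 59.1 and 56.2 CPM with siRNA3, against 62.3, 63.4 and 61.4 CPM in A549 control. The log2 fold changes of 0.13 ± 0.07, 0.13 ± 0.07 and -0.08 ± 0.07 were not called (adjusted p 0.128, 0.145 and 0.359), nor was that with siRNA3 without replicate 3 (-0.05, adjusted p 0.543). On log2(TPM + 1), which moved the median of all genes to 0.23 with siRNA1, MTHFD1L was called higher with siRNA1 (0.30, limma adjusted p 0.00808) and siRNA2 (0.23, adjusted p 0.0385). MTHFD1, the cytosolic enzyme, had 132, 124 and 135 CPM with siRNA1, 204, 209.6 and 188 CPM with siRNA2 and 233, 258 and 232 CPM with siRNA3, against 279, 280.4 and 279 CPM in A549 control. It fell with siRNA1 (-1.02 ± 0.08, adjusted p 4.77e-08) and siRNA2 (-0.42 ± 0.08, adjusted p 0.000301). With siRNA3 all 3 libraries were below the controls, but the value was not called (-0.16 ± 0.08, adjusted p 0.0748). It was not called without siRNA3 replicate 3 either (-0.12, adjusted p 0.143). Without siRNA3 replicate 2 it was called (-0.21, adjusted p 0.0406), and over its 12 alternatives the adjusted p ran from 0.0215 to 0.155.

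ALDH1L2 and CBS, which draw one-carbon units and serine away, were the least abundant members in A549 control, at 2.99 to 4.01 TPM and 11.7 to 13.9 TPM. ALDH1L2 had 14.7, 15.6 and 13.2 CPM with siRNA1, 11.4, 10.5 and 10.1 CPM with siRNA2 and 4.96, 6.03 and 3.78 CPM with siRNA3, against 17.1, 13.5 and 14.8 CPM in A549 control. It was not called with siRNA1 (0.02 ± 0.14, adjusted p 0.898) and fell with siRNA3 (-1.56 ± 0.15, adjusted p 1.05e-06, and -1.39 without replicate 3, adjusted p 6.66e-07). Its lower value with siRNA2 (-0.44 ± 0.14, adjusted p 0.0138) was no longer called without control replicate 1 (-0.35, adjusted p 0.0695) or on log2(TPM + 1) (-0.26, adjusted p 0.106). CBS had 5.71, 5.11 and 5.95 CPM with siRNA1, 7.73, 7.89 and 7.29 CPM with siRNA2 and 5.40, 6.03 and 5.63 CPM with siRNA3, against 17.9, 20.5 and 16.2 CPM in A549 control. It fell with all 3, by log2 fold changes of -1.62 ± 0.11, -1.19 ± 0.10 and -1.63 ± 0.11 (adjusted p 1.24e-08, 4.81e-07 and 3.25e-08), and -1.60 with siRNA3 without replicate 3 (adjusted p 9.58e-08).

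The siRNAs were also compared with each other, without the control libraries. Of the 9 genes other than PHGDH, 6 were called between siRNA1 and siRNA2 (56% of all genes called), 7 between siRNA1 and siRNA3 (66.6%) and 6 between siRNA2 and siRNA3 (59%), near the shares among all genes. Without siRNA3 replicate 3, 7 were called between siRNA1 and siRNA3 and 8 between siRNA2 and siRNA3. Between siRNA1 and siRNA2, SHMT1 (-0.75), MTHFD1 (-0.60) and CBS (-0.43) were lower and ALDH1L2 higher (0.47) beside the genes given above. SHMT2 was also called there (-0.23 ± 0.09, adjusted p 0.0363), but not without siRNA1 replicate 2 (-0.15, adjusted p 0.147), siRNA2 replicate 1 (-0.20, adjusted p 0.111) or siRNA2 replicate 2 (-0.22, adjusted p 0.101). Between siRNA1 and siRNA3, SHMT1 (-0.58) and MTHFD1 (-0.86) were lower and ALDH1L2 (1.58) higher. Between siRNA2 and siRNA3, ALDH1L2 (1.12 ± 0.15) and CBS (0.43 ± 0.11) were higher. The small differences of PSAT1 (0.26) and MTHFD1L (0.21) between siRNA1 and siRNA3, and of PSPH (0.30), MTHFD1L (0.20) and MTHFD1 (-0.26) between siRNA2 and siRNA3, were called but each lost its call in at least 1 fit without a library. Those libraries were siRNA3 replicate 2 for PSAT1 (0.18, adjusted p 0.126), siRNA2 replicate 3 for MTHFD1 (-0.21, adjusted p 0.0503), and siRNA2 replicate 1 and siRNA3 replicates 1 and 2 for PSPH (adjusted p 0.0593 to 0.0823). For MTHFD1L they were siRNA1 replicates 1 and 3 and siRNA3 replicates 1 and 2 between siRNA1 and siRNA3, and siRNA2 replicates 1 and 2 and siRNA3 replicates 1 and 2 between siRNA2 and siRNA3 (adjusted p 0.0553 to 0.101). Without siRNA3 replicate 3, PSAT1 (0.22, adjusted p 0.0261) and SHMT1 (0.23, adjusted p 0.0145) became called between siRNA2 and siRNA3.

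Within a library, levels per transcript length show how the balance of the enzymes shifted. The 10 genes summed to 444 ± 10.9 TPM with siRNA1, 541 ± 5.02 TPM with siRNA2 and 594 ± 48.9 TPM with siRNA3, against 1075 ± 12.5 TPM in A549 control (SD, n = 3 each). PHGDH held 1.198%, 3.66% and 3.19% of that sum with siRNA1, siRNA2 and siRNA3, against 4.94% in A549 control. SHMT2 stood at 1.28 ± 0.113 times the TPM of SHMT1 with siRNA1, 0.890 ± 0.0213 times with siRNA2 and 3.06 ± 0.134 times with siRNA3, against 2.18 ± 0.111 times in A549 control, so the ratio was below control with siRNA1 and siRNA2 and above it with siRNA3. MTHFD2 and MTHFD1L together stood at 1.09 ± 0.0683, 1.23 ± 0.0696 and 1.01 ± 0.0701 times the TPM of MTHFD1 with siRNA1, siRNA2 and siRNA3, against 2.35 ± 0.144 times in A549 control. Without siRNA3 replicate 3, the siRNA3 sum averaged 621 TPM, with 3.12% held by PHGDH, SHMT2 at 3.13 times SHMT1, and the mitochondrial pair at 0.966 times MTHFD1. These ratios are descriptions; with 3 libraries a group an exact permutation test cannot go below 0.1.

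**Figure D3:**
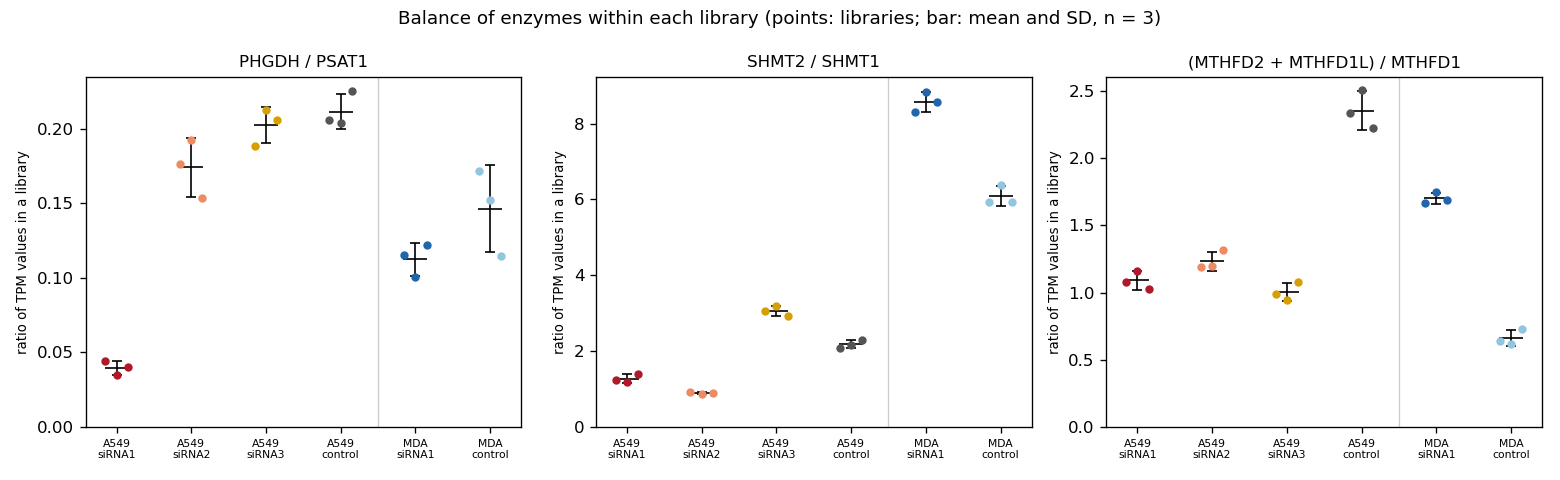
Ratio of TPM values within each library for PHGDH over PSAT1, for the mitochondrial SHMT2 over the cytosolic SHMT1, and for the mitochondrial MTHFD2 plus MTHFD1L over the cytosolic MTHFD1. Points are libraries, and the bar and whiskers are the mean and SD of 3. PHGDH over PSAT1 is 0.0398 in A549 with siRNA1, against 0.211 in A549 control, and the last ratio is 1.70 in MDA-MB-231 with siRNA1, against 0.663 in its control.

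In MDA-MB-231 the same siRNA gave another picture: MTHFD2, PSAT1 and MTHFD1L rose, MTHFD1 and SHMT1 fell, and PHGDH was not called. These are 5 called of 9 genes tested, where 55.3% of 15280 genes were called (27.5% higher and 27.8% lower), and the median over the 9 was -0.10, beside 0.01 over all genes. MTHFD2 had 80.8, 79.7 and 76.1 CPM with siRNA1, against 51.8, 53.1 and 55.8 CPM in MDA-MB-231 control. All siRNA1 libraries lay above all controls (0.57 ± 0.06, edgeR adjusted p 2.1e-05). PSAT1 had 122, 135 and 122.6 CPM with siRNA1, against 104, 102 and 111 CPM in control (0.27 ± 0.06, adjusted p 0.00456). MTHFD1L had 52.9, 51.3 and 47.9 CPM with siRNA1, against 44.5, 47.4 and 43.0 CPM in control. Its change (0.19 ± 0.06, adjusted p 0.0277) was not called without siRNA1 replicate 1 (0.16, adjusted p 0.112), siRNA1 replicate 2 (0.17, adjusted p 0.0868) or control replicate 1 (0.18, adjusted p 0.0772).

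MTHFD1 had 119.95, 113 and 112 CPM with siRNA1, against 224, 235 and 204 CPM in MDA-MB-231 control, a log2 fold change of -0.93 ± 0.06 (adjusted p 1.05e-06). SHMT1 had 18.02, 18.4 and 17.8 CPM with siRNA1, against 28.96, 26.8 and 25.3 CPM in control (-0.57 ± 0.07, adjusted p 7.35e-05). Neither pair of groups overlapped. PHGDH had 12.5, 12.03 and 13.3 CPM with siRNA1, against 15.9, 13.7 and 11.3 CPM in control. The groups overlapped, and the change was not called (-0.10 ± 0.11, adjusted p 0.472). Without control replicate 3, its lowest control, PHGDH was called lower (-0.23, adjusted p 0.0295), and so was SHMT2 (-0.18, adjusted p 0.0052). SHMT2 had 132, 144 and 136 CPM with siRNA1, against 156, 155 and 135 CPM in control (-0.10 ± 0.06, adjusted p 0.205). PSPH was not called (0.17 ± 0.08, adjusted p 0.108), nor was ALDH1L2, at 0.442 to 0.689 CPM with siRNA1, against 0.529 to 0.795 CPM in control. CBS was listed at 0.00 to 0.09 TPM with siRNA1, against 0.00 to 0.03 TPM in control. It did not pass the count filter, and no fold change is given.

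An interaction term, A549 minus MDA-MB-231, tested whether siRNA1 acted differently in the lines, and in it 57.8% of 16736 genes were called and 27% were called lower. MTHFD2 (-3.66 ± 0.10, adjusted p 3.37e-13), SHMT2 (-1.82 ± 0.11, adjusted p 1.77e-09), PSAT1 (-1.38 ± 0.10, adjusted p 1.41e-08), SHMT1 (-0.57 ± 0.10, adjusted p 0.000124) and PSPH (-0.53 ± 0.12, adjusted p 0.00145) fell further in A549 or fell there and not in MDA-MB-231. PHGDH differed by -3.42 ± 0.15, given as a description since its A549 fall chose it. MTHFD1 (-0.05 ± 0.09, adjusted p 0.681), MTHFD1L (-0.01 ± 0.09, adjusted p 0.92) and ALDH1L2 (0.23 ± 0.27, adjusted p 0.507) were not called. BLM itself was lowered further in A549 (-3.23 ± 0.12, adjusted p 1.03e-11). The part of that gap in the differences of the members was not tested.

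All 10 genes stood higher in A549 control than in MDA-MB-231 control. Between these controls 82% of 15816 genes were called and 40.7% were called higher. PHGDH, chosen on the A549 libraries, and CBS, which passed the count filter through A549 alone, are described here with no test, and the other 8 genes were called higher. ALDH1L2 had 17.1, 13.5 and 14.8 CPM in A549 control, against 0.585, 0.529 and 0.795 CPM in MDA-MB-231 control (4.45 ± 0.17, edgeR adjusted p 2.99e-11). CBS had 1969 counts summed over the 3 A549 control libraries, against 1 count in the MDA-MB-231 control libraries, a ratio of 1620 after scaling to depth, with a 95% interval of 291 to 64100 that covers counting error only. PHGDH differed by 1.98 ± 0.11. MTHFD2 (2.63 ± 0.07), SHMT1 (1.81 ± 0.07) and PSAT1 (1.43 ± 0.07) were called too. PSPH (0.43), MTHFD1L (0.38), SHMT2 (0.33) and MTHFD1 (0.24) differed least. On log2(TPM + 1) these last 4 were not called and MTHFD1 turned to -0.02. The line cannot be told apart from the culture or any batch. In MDA-MB-231, SHMT2 stood at 8.56 ± 0.264 times the TPM of SHMT1 with siRNA1, against 6.09 ± 0.264 times in control, and in control MTHFD1 was above MTHFD2 in TPM (142 to 152, against 55.6 to 62.7), the reverse of A549 control (140.0 to 149, against 287 to 310).

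The genes around the pathway were read from lists written with earlier results known. In the folate list of 13 genes, 12 were tested in A549, and 7 fell and 4 rose with siRNA1, 7 fell and 1 rose with siRNA2, and 6 fell and 1 rose with siRNA3. Leaving out siRNA3 replicate 3, 7 fell and 1 rose with siRNA3, as MTHFS became called lower. In the same 3 comparisons 32.8%, 28.4% and 30.4% of all genes were called lower and 39%, 32.5% and 30.9% higher, and in MDA-MB-231 27.8% lower and 27.5% higher, shares against which this and the following lists are to be read. SLC25A32, the mitochondrial folate carrier, fell with all 3, with log2 fold changes of -2.43 ± 0.09 for siRNA1, -2.18 ± 0.09 for siRNA2 and -0.92 ± 0.09 for siRNA3 (-0.90 without replicate 3). So did GGH, which trims the polyglutamate tail of folates (-2.14 ± 0.10, -0.76 ± 0.10 and -1.14 ± 0.10, the last -1.25 without replicate 3). In MDA-MB-231, 6 of 11 tested folate genes fell and 3 rose, among them TYMS, the thymidylate synthase (-1.14 ± 0.05), and SLC25A32 (-1.13 ± 0.09).

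The 6 enzymes of purine synthesis all fell in A549 with siRNA1 and siRNA2, and 4 of them with siRNA3 (5 without its replicate 3, with ADSL). The shares of all genes called lower there were 32.8%, 28.4% and 30.4%. PAICS, which carries out steps in the middle of the purine ring assembly, had log2 fold changes of -1.68 ± 0.08 with siRNA1, -1.22 ± 0.08 with siRNA2 and -0.88 ± 0.08 with siRNA3. PPAT, the committed step, had -2.38 ± 0.09, -1.03 ± 0.08 and -0.81 ± 0.08, and GART, which uses formyl folate, had -1.01 ± 0.07, -0.67 ± 0.07 and -0.48 ± 0.07. The siRNA3 values of PAICS, PPAT and GART were -0.93, -0.79 and -0.47 without replicate 3. In MDA-MB-231, where 27.8% of all genes were called lower, 4 of 6 fell, among them PPAT (-0.69 ± 0.10), PAICS (-0.47 ± 0.05) and ATIC (-0.38 ± 0.05), which also uses formyl folate. Cycling cell markers fell in all these groups, as given above.

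Of 10 tested genes of serine and glycine transport and use, 6 fell and 3 rose with siRNA1, 4 fell and 3 rose with siRNA2, and 5 fell and 2 rose with siRNA3 in A549, and 3 of 9 fell and 2 rose in MDA-MB-231. Without siRNA3 replicate 3, 4 fell and 2 rose with siRNA3, as SLC1A4 lost its call. The shares of all genes called lower were 32.8%, 28.4%, 30.4% and 27.8% in these 4 comparisons, and of those called higher 39%, 32.5%, 30.9% and 27.5%. GCSH, the carrier protein of the glycine cleavage system, fell with siRNA1, siRNA2 and siRNA3 in A549 (-1.78 ± 0.12, -0.78 ± 0.12 and -1.09 ± 0.12) and in MDA-MB-231 (-0.98 ± 0.09). SDSL, a relative of serine dehydratase, rose with each A549 siRNA, by 1.80 ± 0.10, 0.90 ± 0.10 and 1.31 ± 0.10, and in MDA-MB-231 by 0.41 ± 0.12. GLDC, the decarboxylase of glycine cleavage, fell with all 3 siRNAs in A549 (-0.61 ± 0.07, -0.93 ± 0.07 and -0.22 ± 0.07) and did not pass the count filter in MDA-MB-231. SFXN3, a relative of the mitochondrial serine carrier, rose with all 3 (0.72 ± 0.09, 0.50 ± 0.09 and 1.75 ± 0.09) and was not called in MDA-MB-231 (0.02 ± 0.07). SFXN1, that carrier, went the other way in A549. It had 129 to 143 CPM with siRNA1, 141 to 150 CPM with siRNA2 and 121 to 137 CPM with siRNA3, against 173 to 195 CPM in A549 control. With siRNA3 it was called lower (-0.47 ± 0.07, and -0.49 without replicate 3). In MDA-MB-231 it had 110 to 116 CPM with siRNA1, against 109 to 117 CPM in control. SLC1A5, a neutral amino acid transporter, fell with siRNA1 (-1.43 ± 0.09) and siRNA2 (-0.47 ± 0.09) and was not called with siRNA3 (0.08 ± 0.09) or in MDA-MB-231 (0.04 ± 0.08). AMT, the aminomethyltransferase of glycine cleavage, rose with siRNA1 (1.84 ± 0.18) and siRNA2 (0.84 ± 0.19) in A549 and in MDA-MB-231 (0.71 ± 0.13), and was not called with siRNA3 (0.34 ± 0.20). SRR, serine racemase, fell with siRNA1 (-0.40 ± 0.10) and siRNA3 (-0.63 ± 0.10) in A549 and in MDA-MB-231 (-0.57 ± 0.11), and was not called with siRNA2 (0.11 ± 0.10). Without siRNA3 replicate 3 the calls of these genes with siRNA3 were the same, with GCSH at -1.14, SDSL at 1.27, GLDC at -0.22, SFXN3 at 1.71, SLC1A5 at 0.05, AMT at 0.30 and SRR at -0.73.

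Of the 6 tested genes of the methionine cycle and transsulfuration, 5 fell and 1 rose with siRNA1, 4 fell and 1 rose with siRNA2, and 4 fell and 0 rose with siRNA3 (with or without its replicate 3), and 3 fell and 2 rose in MDA-MB-231. The shares of all genes are those given for the list before. MTRR, which reactivates methionine synthase, fell with each siRNA in A549 (-1.58 ± 0.08, -1.29 ± 0.08 and -1.02 ± 0.08, the last -1.06 without replicate 3) and in MDA-MB-231 (-0.44 ± 0.08). AHCY, which hydrolyses S-adenosylhomocysteine, rose with siRNA1 (0.33 ± 0.08) and fell with siRNA2 (-0.34 ± 0.08) in A549 and with siRNA1 in MDA-MB-231 (-0.48 ± 0.07), and was not called with siRNA3 (-0.09 ± 0.08, and -0.14 without replicate 3). CTH, the step after CBS on the way to cysteine, fell with siRNA1 (-0.53 ± 0.14) and siRNA3 (-0.53 ± 0.14, and -0.55 without replicate 3) in A549, and rose with siRNA2 (0.43 ± 0.13) and in MDA-MB-231 (1.01 ± 0.09), where CBS was near 0.

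ATF4 and 7 other genes it is known for differed between the lines. In MDA-MB-231 all 8 rose with siRNA1, where 27.5% of all genes were called higher, with a median of 1.38, beside 0.01 over all genes. In A549, 5 fell and 2 rose with siRNA1 (median -0.75), 5 fell and 1 rose with siRNA2 (median -0.71), and 4 fell and 1 rose with siRNA3 (median -0.23). Without siRNA3 replicate 3, 4 fell and 2 rose with siRNA3 (median -0.32), as SLC7A11 became called higher. Of all genes, 32.8%, 28.4% and 30.4% were called lower with siRNA1, siRNA2 and siRNA3. ATF4 had 164 to 171 TPM in A549 with siRNA1, against 387 to 399 TPM in A549 control, and 696 to 728 TPM in MDA-MB-231 with siRNA1, against 377 to 394 TPM in MDA-MB-231 control. The groups did not overlap in either line. ATF4 fell in A549 with siRNA1 (-1.48 ± 0.09), siRNA2 (-0.67 ± 0.09) and siRNA3 (-0.44 ± 0.09) and rose in MDA-MB-231 (0.81 ± 0.05). ASNS, asparagine synthetase, fell with siRNA1 (-2.10 ± 0.15), siRNA2 (-1.23 ± 0.14) and siRNA3 (-2.51 ± 0.15) and rose in MDA-MB-231 (1.103 ± 0.07). CHAC1, which degrades glutathione, fell with siRNA1 (-1.16 ± 0.22), siRNA2 (-1.82 ± 0.23) and siRNA3 (-3.70 ± 0.28) and rose in MDA-MB-231 (2.71 ± 0.13). DDIT3, the stress factor CHOP, rose in MDA-MB-231 (1.94 ± 0.09) and in A549 with siRNA1 (0.86 ± 0.14), and was not called with siRNA2 (0.19 ± 0.14) or siRNA3 (0.30 ± 0.14). The siRNA3 values without replicate 3 were -0.55 for ATF4, -2.63 for ASNS, -4.09 for CHAC1 and 0.14 for DDIT3, with the same calls. SESN2, a leucine sensor that p53 also induces, rose in all 4 comparisons, by 2.84 ± 0.12, 1.63 ± 0.11 and 0.91 ± 0.11 in A549 and by 2.51 ± 0.10 in MDA-MB-231. In the interaction 7 of the 8 were called lower and SESN2 higher (0.38 ± 0.15), where 27% of all genes were called lower and 30.8% higher. ATF4 was at -2.25 ± 0.08, ASNS at -3.16 ± 0.12 and CHAC1 at -3.82 ± 0.23.

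**Figure D4:**
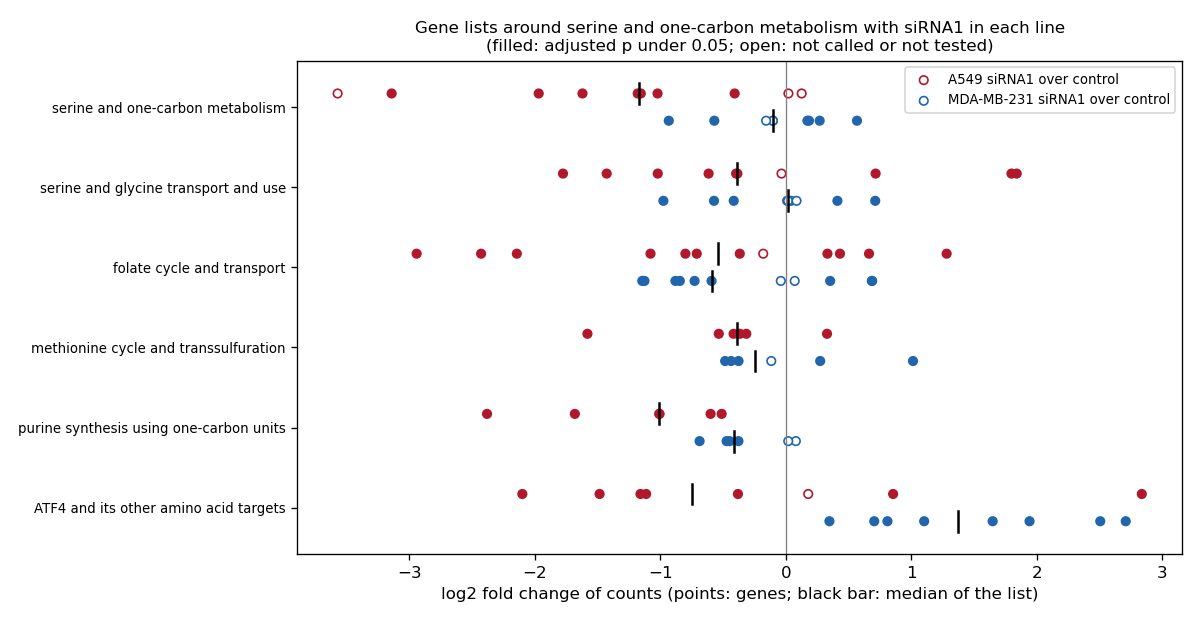
Log2 fold change with siRNA1 over control for each gene of 6 lists, in A549 and in MDA-MB-231, from counts. Points are genes, filled where called, and the black bar is the median of the list in that line. The 8 genes of the ATF4 list lie between 0.35 and 2.71 in MDA-MB-231 and between -2.10 and 2.84 in A549.

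Over the 12 A549 libraries, the 5 genes whose log2 CPM ran most like that of PHGDH, of 12374 genes ranked, were MCM6 (Pearson's r 0.998), DSN1 (0.996), CHAF1B (0.995), PRIM2 (0.994) and CKS1B (0.994). MCM6 is a subunit of the replicative helicase, DSN1 a kinetochore protein, CHAF1B a subunit of a histone chaperone, PRIM2 a subunit of primase and CKS1B a cofactor of cyclin-dependent kinases. Of the members, SHMT1 (0.982, rank 65) and MTHFD2 (0.980, rank 94) came closest, then MTHFD1 (0.949, rank 408). Further down came CBS (0.799, rank 1803), SHMT2 (0.778, rank 1952), PSAT1 (0.649, rank 2846) and PSPH (0.648, rank 2849). ALDH1L2 (-0.108, rank 6737) and MTHFD1L (-0.452, rank 8649) did not run with PHGDH. These correlations describe 12 libraries of a single line in 4 groups, whose means enter them, and carry no p. All 5 were picked for likeness in these same A549 libraries. MCM6 changed by -3.51 ± 0.09 with siRNA1, -1.53 ± 0.09 with siRNA2 and -1.40 ± 0.09 with siRNA3. In that order DSN1 changed by -2.83, -1.29 and -1.22, and CHAF1B by -1.98, -0.86 and -0.88. PRIM2 changed by -2.14, -0.87 and -0.89, and CKS1B by -3.01, -1.26 and -1.37. Apart from MCM6, they fell less than PHGDH with each siRNA. In MDA-MB-231 MCM6 changed by -0.93 ± 0.06, and the 5 ran from -0.98 (CHAF1B) to -0.51 (CKS1B). PHGDH was at -0.10 ± 0.11 there.

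Some counts are uncertain. Expected counts were whole in every library for 7 of the genes and not for SHMT1, MTHFD1 and CBS, where RSEM shared reads with other features. In the GENCODE 29 annotation, exons of MTHFD2 overlap those of SLC4A5 on the opposite strand over 1324 bases, and exons of SHMT1, SHMT2, MTHFD1 and ALDH1L2 overlap those of SMCR8, NDUFA4L2, ZBTB25 and C12orf45 over 33 to 196 bases. Also on the opposite strand, MTHFD1 overlaps AL122035.2 over 756 bases and AL122035.1 over 101, SHMT2 AC137834.2 over 427 and MTHFD2 AC006030.1 over 295. On the same strand, SHMT1 shares 73 bases with MIR6778. Levels of these further genes are not given here. The kit keeps strand, and whether the counting used it is not given in the sources used here. SLC4A5 was at 1.17 to 4.74 TPM over the 18 libraries, NDUFA4L2 at 0.00 to 0.87 TPM, ZBTB25 at 4.63 to 18.8 TPM, SMCR8 at 14.4 to 31.3 TPM and C12orf45 at 33.2 to 107 TPM. C12orf45 was above ALDH1L2 in every library.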

How the data were processed

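RNA from 18 libraries of 2 cell lines was sequenced. Per the file headers, the authors deposited an expected count, a TPM and an FPKM for each of 27968 gene symbols. The submitters' processing notes name RSEM and hg19, while its version, an aligner and an annotation release were not given in the sources used here. Deposited TPM, scaled to length and library, served for levels between genes and as an alternative, and the deposited FPKM values were left aside. In a library, 10.2% to 11.8% of the expected counts had a decimal other than 0.

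The rounded counts were tested in R 4.3.3 by edgeR 4.0.16, with TMM factors, filterByExpr (minimum count 10, minimum total 15), the quasi-likelihood F test and Benjamini-Hochberg adjustment over all tested genes, with adjusted p under 0.05 called. All 12 libraries of A549 were fitted together, and all 6 of MDA-MB-231 together. The interaction used 12 libraries and the comparison of controls 6. PHGDH, wherever A549 libraries enter, and CBS between the controls were fitted but given no test. Standard errors are the log2 fold change over the square root of F. CPM values use TMM library sizes over all 18 libraries. Libraries of a group differed by more than counting noise in every pair, so none was taken as a copy.

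The 10 genes and all lists were chosen with earlier results of these data known. Named genes are BLM, the 10 genes, up to 3 called genes of each list with the smallest adjusted p per comparison, and the 5 genes most correlated with PHGDH (log2 CPM, prior count 2, average log2 CPM of at least 1). A list gene named in a comparison is given in the others too where it helps, chosen after its values were seen, and not every gene that the rule picks is reported. SFXN1 is given beside its relative SFXN3, also after its values were seen. Alternatives were DESeq2 1.42.0 size factors, no filter, the DESeq2 Wald test, limma 3.58.1 on log2(TPM + 1) and log2(TPM + 0.1), a replicate block and leaving out each library. The test was checked on simulated counts, with the same dispersion for every gene and no trend with transcript length. Such counts cannot show how it performs with a library like A549 siRNA3 replicate 3. The main fits took no pairing by replicate number. Of same-numbered pairs, 3 of 18 in A549 and 0 of 3 in MDA-MB-231 had a correlation of deviations over 0.1. Differently numbered pairs reached 0.705 in A549 and 0.191 in MDA-MB-231. With 3 libraries a group, these values cannot show whether the libraries were paired by design. Promoter windows came from RefSeq and gene overlaps from GENCODE 29, both on GRCh38 and not the hg19 of the files, so no position is joined to a count.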

Additional observations from a re-analysis of the deposited data

Results flagged for a closer look

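With siRNA1, 5 of the 8 genes tested changed differently in the 2 lines by the interaction test (edgeR, adjusted over 16736 genes). That is near the share of all genes called in it, 57.8%. All 5 were called lower, as were 27% of all genes. MTHFD2 differed by -3.66 (adjusted p 3.37e-13): all 3 A549 libraries lay below their controls and all 3 MDA-MB-231 libraries above theirs. PSAT1 differed by -1.38 (adjusted p 1.41e-08), with the same split of libraries. SHMT2 differed by -1.82 (adjusted p 1.77e-09), SHMT1 by -0.57 (adjusted p 0.000124) and PSPH by -0.53 (adjusted p 0.00145), and for each all 3 A549 libraries with siRNA1 lay below their controls. SHMT1 lay below control in all 3 MDA-MB-231 libraries too, by less. BLM was lowered further in A549, and the part of that in these differences was not tested.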

How the results depend on the processing

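Of 466 tested log2 fold changes under other scalings, filters, tests and units, 425 kept their direction and side of the threshold, 20 lost a call, 19 gained one, and 2 reversed. Leaving out a library kept 497 of 522, with 20 calls lost, 5 gained and 0 reversed. Counts of called members in the siRNA comparisons kept within 1.5 times under every alternative run. For A549 control against MDA-MB-231 control, 4 of the 8 tested genes were called on log2(TPM + 1) and 4 on log2(TPM + 0.1), and MTHFD1 reversed to -0.018 on both. The log2(TPM + 1) scale moved the median of all genes to 0.23 with siRNA1 in A549 and to -0.20 between the controls. On it 7689 genes were called higher and 3558 lower with siRNA1 in A549 (6196 and 5208 from counts), 4971 and 3317 in MDA-MB-231 (4208 and 4249), 5885 and 3097 between siRNA1 and siRNA2 (4553 and 4352), 7313 and 3219 between siRNA1 and siRNA3 (5467 and 5129), and 4953 and 7870 between A549 control and MDA-MB-231 control (6435 and 6536). On log2(TPM + 0.1) the interaction had 6475 higher and 3680 lower (5158 and 4515). PHGDH with siRNA1 in A549 was -3.10 on log2(TPM + 1) and -3.30 on log2(TPM + 0.1). On log2(TPM + 1), CBS (-0.22) and SHMT2 (-0.07) between siRNA1 and siRNA2 and MTHFD1 (-0.15) between siRNA2 and siRNA3 lost their calls. Unfiltered counts took the call from PSAT1 (0.19) and MTHFD1L (0.13) between siRNA1 and siRNA3. With DESeq2 size factors, PSPH with siRNA2 (-0.23, adjusted p 0.048) and MTHFD1 with siRNA3 (-0.19, adjusted p 0.0422) became called in A549. The replicate block, on numbers not known to pair the libraries, left 70 of 71 values on their side. SHMT2 between siRNA1 and siRNA2 stayed at -0.23 there and was not called (edgeR adjusted p 0.0592). CBS and ALDH1L2 in MDA-MB-231 are limited by depth, at under 1 CPM.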
